A study of Mus musculus with 3 samples.

Results

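The 10 genes described here encode some of the heat shock proteins of the mouse cytosol and mitochondria, and their transcription factor. They are Hspb1, Hspa8, Hspa1a, Hspa1b, Hsp90aa1, Hsp90ab1, Hspd1, Hspe1, Hsph1 and Hsf1. They were picked as a family by name and found by Entrez gene number, with earlier results of these data known, and all 10 were found among the 17997 genes listed in any of 3 RNA-seq libraries. The libraries hold total RNA of 46C mouse embryonic stem cells of strain 129, grown with serum and leukemia inhibitory factor on gelatin. Lef1 P5 and Lef1 P2 are cells given extra Lef1, a transcription factor that acts with beta-catenin in Wnt signalling, collected at passage 5 and at passage 2. Empty vector P2 is the same line with the vector alone, collected at passage 2. Each group is 1 library, so groups could not be tested against each other and p-values are absent. The promoter driving Lef1, and whether 1 culture gave both Lef1 libraries, were not given in the sources used here.

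Heat shock proteins are molecular chaperones: they bind unfolded or newly made proteins and help them fold, assemble or be degraded. Hsp70 proteins bind short exposed stretches of a client, J-domain proteins bring clients to them and Hsp110 proteins exchange their nucleotide, while Hsp90 takes over clients that are nearly folded, such as kinases and steroid receptors. Small heat shock proteins hold unfolding clients without using ATP, and the Hsp60 and Hsp10 chaperonin folds proteins inside mitochondria. Hsf1 is the transcription factor that binds heat shock elements, repeats of the unit GAA and its complement TTC, and raises these genes under stress. Several of the genes, Hspa8 and Hsp90ab1 above all, are transcribed strongly in unstressed cells, and embryonic stem cells are known for high levels of them.

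The sequence around the start sites was searched for exact matches to such elements. Elements with a changed base in a unit are missed by this search. RefSeq promoter windows of GRCm38.p6, from 250 bases before to 50 bases after a start site, were matched for 6 of the 10 genes (Hspd1, Hspe1, Hspb1, Hsph1, Hspa1a and Hspa1b, with 8 windows). The 250 bases before the start are printed below, 5′ to 3′ on the gene's strand. They are given for Hspe1 of the chaperonin pair, the small heat shock protein and the Hsp70 copies. Capitals mark every match to GAANNTTC or TTCNNGAA. The windows are chr1:55087898-55088147 (plus strand) for Hspe1, chr5:135887669-135887918 (plus) for Hspb1, chr17:34972157-34972406 (minus) for Hspa1a and chr17:34959239-34959488 (minus) for Hspa1b.
Hspe1: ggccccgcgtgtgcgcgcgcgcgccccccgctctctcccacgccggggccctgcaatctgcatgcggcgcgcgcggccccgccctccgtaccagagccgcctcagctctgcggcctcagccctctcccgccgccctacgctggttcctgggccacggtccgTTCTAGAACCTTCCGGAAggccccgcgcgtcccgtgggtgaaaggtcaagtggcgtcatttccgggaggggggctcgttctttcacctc
Hspb1: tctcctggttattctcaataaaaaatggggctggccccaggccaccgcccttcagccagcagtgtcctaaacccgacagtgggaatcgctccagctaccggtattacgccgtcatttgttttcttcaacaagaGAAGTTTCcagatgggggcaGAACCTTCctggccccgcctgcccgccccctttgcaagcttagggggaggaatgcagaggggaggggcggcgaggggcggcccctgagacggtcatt
Hspa1a: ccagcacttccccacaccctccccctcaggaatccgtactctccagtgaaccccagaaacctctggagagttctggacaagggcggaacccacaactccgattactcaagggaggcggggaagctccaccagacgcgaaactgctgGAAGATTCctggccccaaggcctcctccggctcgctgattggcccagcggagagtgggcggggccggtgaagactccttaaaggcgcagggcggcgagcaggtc
Hspa1b: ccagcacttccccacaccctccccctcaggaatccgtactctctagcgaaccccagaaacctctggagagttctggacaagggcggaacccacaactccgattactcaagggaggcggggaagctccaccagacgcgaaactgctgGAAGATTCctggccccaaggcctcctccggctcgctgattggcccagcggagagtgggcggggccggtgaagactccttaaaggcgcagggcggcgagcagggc

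Hspe1 and Hspd1 lie head to head and share 1 stretch of matches, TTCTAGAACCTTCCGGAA on the Hspe1 strand at chr1:55088059-55088076. It begins at -89 from the Hspe1 start and, read on the other strand, at -144 from an Hspd1 start. It holds 2 overlapping matches to a longer element of 3 alternating units GAA and TTC with 2 bases between neighbours, searched on both strands. Of 32851 RefSeq promoter windows, 198 (0.603%) hold the longer element and 4946 (15.1%) hold GAANNTTC or TTCNNGAA, which the longer element contains. All 6 genes hold the shorter element in at least 1 window (Hspd1 in 1 of 2) and 3 of them (Hspd1, Hspe1 and Hsph1) the longer one. Hspb1 has the matches GAAGTTTC and GAACCTTC, and Hspa1a and Hspa1b each have GAAGATTC, at -104 from the start. In Hsph1 the longer match TTCTGGAAAGTTC lies at chr5:149636288-149636300, just after the start sites. A match is a description of the letters and not a site of binding. The windows of Hspa1a and Hspa1b differ at 4 of 300 positions, 3 of them before the start.

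The levels below are FPKM as the authors deposited them, read fragments scaled for transcript length and library size. The libraries hold 9380813 (Lef1 P5), 9170554 (Lef1 P2) and 9225401 (empty vector P2) expected counts, the authors' estimated reads per gene. Intervals in parentheses are exact 95% intervals for counting error only; amplified reads are not independent molecules, and differences between cultures are not covered. Lef1 was at 214 FPKM in Lef1 P5, 135 FPKM in Lef1 P2 and 1.49 FPKM in empty vector P2, which follows the labels. Of the embryonic stem cell markers, 8 of 8 were measured, with a summed level of 6668 FPKM in Lef1 P5, 6015 FPKM in Lef1 P2 and 6758 FPKM in empty vector P2, of which Dppa5a made up 3816, 3818 and 3771 FPKM. All 8 reached 100 FPKM in some library. Of these 8 markers 6 were lowest in Lef1 P2, against 61.7% of the 884 genes at that level. In Lef1 P2 against empty vector P2, 0 were called lower, against 3.96% of the genes at that level. Past 1.5-fold 2 were lower there, against 19.8%. These 2 were Pou5f1, at 1062 FPKM in Lef1 P5, 704 FPKM in Lef1 P2 and 1135 FPKM in empty vector P2, and Utf1, at 297, 203 and 394 FPKM in the same order. Of 11 endoderm markers such as Gata4 and Sox17, 11 were called higher in Lef1 P2 than in empty vector P2, against 6.49% of 10651 genes. Their summed level was 490.5 FPKM in Lef1 P5, 1838 FPKM in Lef1 P2 and 177 FPKM in empty vector P2, and none was at 0. For 8 fibroblast and feeder-cell markers the sum was 8.43, 11.1 and 17.7 FPKM in the same order, with Postn and Lum not listed and Col1a2, Col3a1, Dcn and Fbn1 under 1 FPKM. The 4 neural markers summed to 24.9, 19.7 and 30.7 FPKM, with Pax6 under 1 FPKM, and the 5 trophoblast markers to 33.6, 99.6 and 21.4 FPKM, with Elf5 not listed. The part of these stem cell and other cell-type genes in the results below was not tested. In bulk RNA, fewer cells of a type and less RNA per cell cannot be told apart.

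Heat shock transcripts were mostly lowest in Lef1 P2, and in Lef1 P5 their summed level was closer to that of empty vector P2. The 10 genes together took 1.61% of the reads of Lef1 P5, 1.08% of Lef1 P2 and 1.76% of empty vector P2. By summed level they stood at 7523 FPKM in Lef1 P5, 4923 FPKM in Lef1 P2 and 8237 FPKM in empty vector P2. Hspb1 and Hspd1 were called lower in Lef1 P2 than in empty vector P2, and both were called higher in Lef1 P5 than in Lef1 P2. Of the 10 genes, 9 had their lowest level in Lef1 P2, all but Hspa1a, against 28.8% of the 12894 genes measured at 1 FPKM or more in any library. Strongly expressed genes shared this order more often: 61.7% of the 884 genes that reached 100 FPKM in any library were lowest in Lef1 P2, and so were 6 of the 6 heat shock genes at that level. Among the 9 genes lowest in Lef1 P2, the counting intervals of Hspa1b and Hsf1 span a ratio of 1 to each other library.

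**Figure D1:**
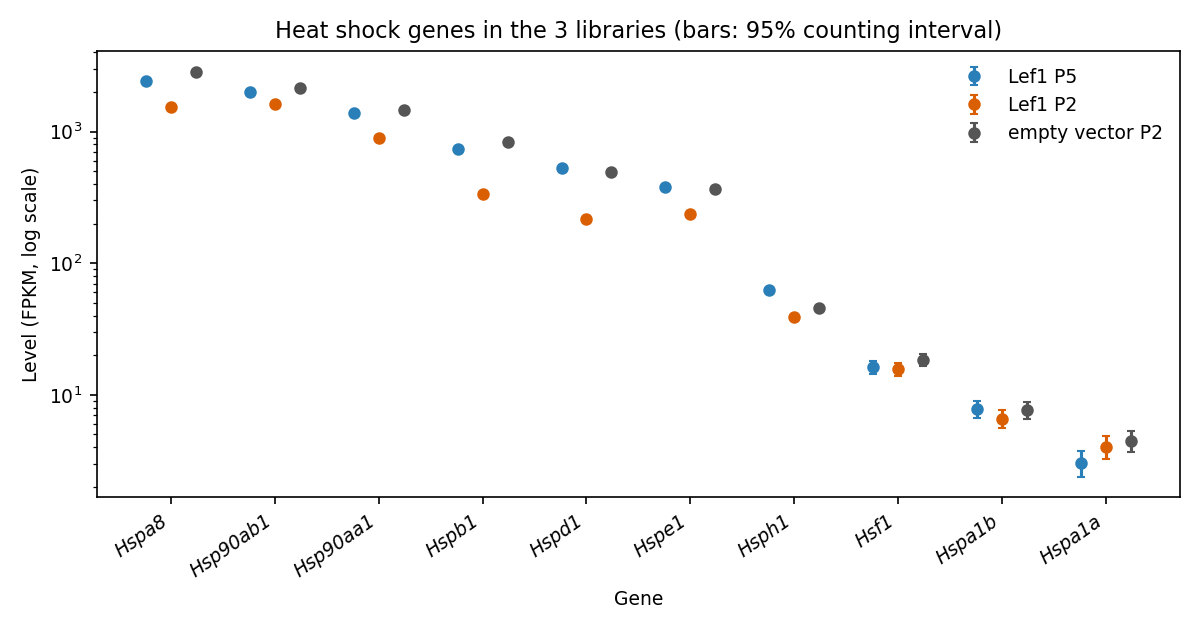
Level of each heat shock gene (FPKM, log axis) in Lef1 P5, Lef1 P2 and empty vector P2, 1 library each, with 95% counting intervals as bars that are often smaller than the points. The Lef1 P2 point is the lowest of the 3 for 9 of the 10 genes, and the levels run from 2857 FPKM for Hspa8 in empty vector P2 to 3.02 FPKM for Hspa1a in Lef1 P5.

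The size rule for a call asked for log2((x + 1)/(y + 1)) of the FPKM values to be 1 or more, or -1 or less (2-fold), and for the higher library to hold 3 FPKM and 20 expected reads. In Lef1 P2 against empty vector P2, 0 of the 10 genes were called higher, where 6.49% of 10651 genes were, and 2 were called lower, where 1.82% of those genes were (3.96% of the genes at 100 FPKM). Past 1.5-fold, 5 of the 10 were lower (Hspb1, Hspa8, Hsp90aa1, Hspd1 and Hspe1), against 8.03% of all genes and 19.8% of the genes at 100 FPKM. Their median log2 ratio was -0.52, against 0.11 over all measured genes and -0.21 over the genes at 100 FPKM. Of all calls 78.1% were higher as deposited, but 62.6% after median-of-ratios and 62.5% after TMM scaling (trimmed mean of M values). These scalings moved the median of all genes by -0.14 each, and the ratio lay under 0 for all 10 heat shock genes in either.

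Against the same empty-vector library, Lef1 P5 had 0 of the 10 genes called in either direction, where 1.40% of 10121 genes were called higher and 1.28% lower. None passed 1.5-fold either, where 4.31% of genes were higher and 5.95% lower. The median log2 ratio of the 10 genes was -0.09, and that of all measured genes -0.02. This comparison differs in Lef1 and in passage, which cannot be told apart here.

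The Lef1 libraries were also set against each other, with the same Lef1 P2 library as above, so these ratios are not independent of the first ones. Here 2 of the 10 were called higher in Lef1 P5 than in Lef1 P2, against 1.88% of 10593 genes and 6.90% of those at 100 FPKM, and 0 lower, against 6.86%. Past 1.5-fold 6 were higher, the 5 named above and Hsph1, against 7.98% of all genes and 26.2% of those at 100 FPKM. Their median log2 ratio was 0.63, against -0.17 over all measured genes and 0.25 over the genes at 100 FPKM. Of all calls 21.5% were higher as deposited, and 44.8% and 43.4% after median-of-ratios and TMM scaling, which moved the median of all genes by 0.17 and 0.16.

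**Figure D2:**
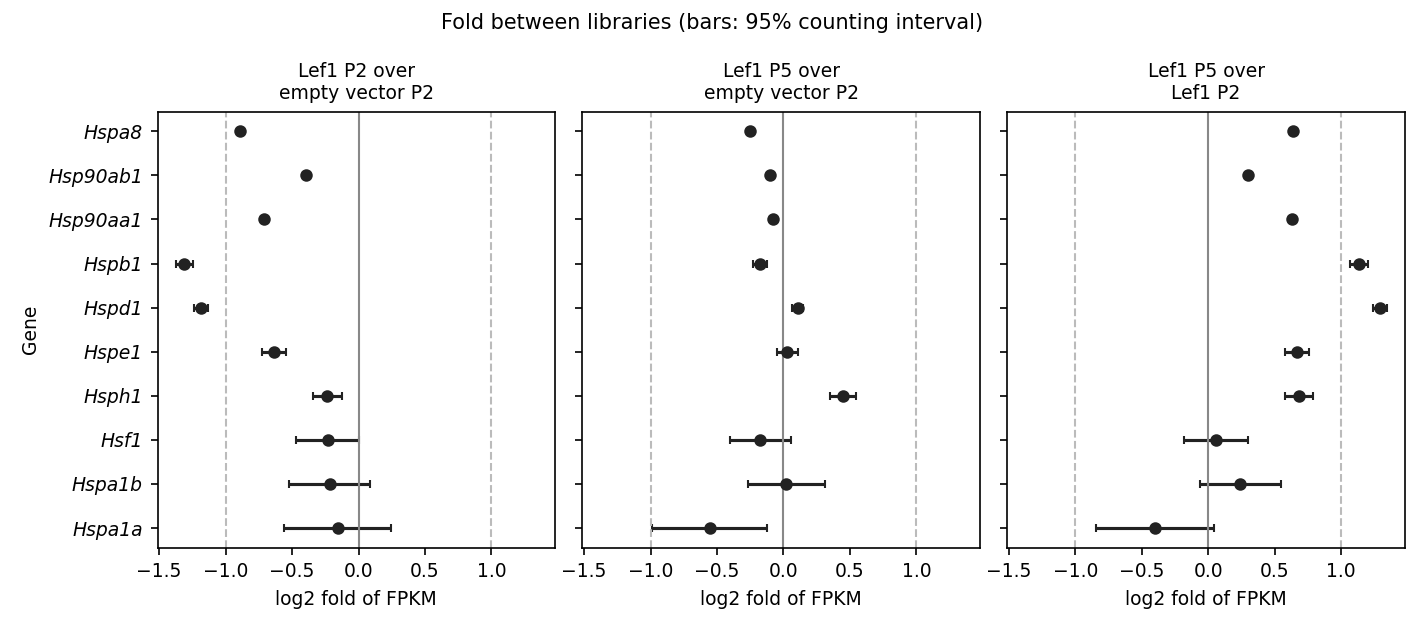
Log2 fold of FPKM for each heat shock gene in the 3 comparisons, with 95% counting intervals; dashed lines mark 2-fold. Hspb1 and Hspd1 pass the line in Lef1 P2 over empty vector P2 and again, on the other side, in Lef1 P5 over Lef1 P2, while no gene passes it in Lef1 P5 over empty vector P2.

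Hspa8 encodes Hsc70, the constitutive cytosolic Hsp70 that folds new proteins and uncoats clathrin vesicles. It was at 2401 FPKM (2379 to 2423) in Lef1 P5, 1543 FPKM (1525 to 1561) in Lef1 P2, against 2857 FPKM (2833 to 2881) in empty vector P2. None of the 3 counting intervals overlapped, and Lef1 P2 was the low library. Hspa8 hosts the snoRNA genes Snord14c, Snord14d and Snord14e on the same strand, whose reads, if any, could be counted with it. It ranked 14th of the listed genes in Lef1 P5, 50th in Lef1 P2 and 7th in empty vector P2. Its level in Lef1 P2 was 0.540 times that of empty vector P2 (0.532 to 0.548), a log2 ratio of -0.89 that did not reach the 2-fold rule as deposited. After median-of-ratios or TMM scaling it was called lower, with a lowest value of -1.05. In Lef1 P5 it was 0.840 times the empty-vector level (0.830 to 0.851) and 1.56 times the Lef1 P2 level (1.53 to 1.58).

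Hspa1a and Hspa1b encode the heat-inducible Hsp70, which is nearly absent from many unstressed cells, and sit close together on chromosome 17. Their coding sequences in GENCODE M21 are identical at 99.5% of 1926 aligned positions, with an unbroken identical run of 638 bases. Hspa8 shares 75.2% of aligned positions with Hspa1a, and its longest identical run with it is 22 bases. The expected counts of Hspa1a and Hspa1b were the only ones among the 10 genes that were not whole, so the split between these copies is uncertain. Their related gene Hspa1l, at 0.60 to 0.72 FPKM, also had counts that were not whole, and the counts became whole only when all 3 were added, at 292 in Lef1 P5, 281 in Lef1 P2 and 320 in empty vector P2. Hspa1a also overlaps Gm20481 on the opposite strand in GENCODE M21, where reads cannot be assigned if counting ignored strand. Hspa1a was at 3.02 FPKM in Lef1 P5, 3.99 FPKM in Lef1 P2 and 4.44 FPKM in empty vector P2, from 77.97, 100.1 and 112 expected reads. For Hspa1b the levels were 7.75 FPKM in Lef1 P5, 6.56 FPKM in Lef1 P2 and 7.63 FPKM in empty vector P2. Relative to empty vector P2, Lef1 P5 had 0.680 times the Hspa1a level (0.503 to 0.916) and 1.02 times the Hspa1b level (0.830 to 1.24), neither called, and the summed copies stood at 0.892 (0.756 to 1.05).

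Summed, the inducible Hsp70 copies were at 10.8 FPKM (9.54 to 12.1) in Lef1 P5, 10.6 FPKM (9.32 to 11.9) in Lef1 P2, against 12.1 FPKM (10.8 to 13.5) in empty vector P2. These intervals overlap in all pairs of libraries. The sum in Lef1 P2 was 0.874 times that of empty vector P2 (0.739 to 1.03), so a change of the size seen for Hspb1 lies outside its counting interval. Hspa8 exceeded the summed copies 223-fold (198 to 252) in Lef1 P5, 146-fold (130 to 166) in Lef1 P2 and 237-fold (212 to 266) in empty vector P2, as a ratio of FPKM levels.

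Hsph1, the cytosolic Hsp110 that exchanges nucleotide on Hsp70 and helps it dissolve aggregates, was highest in Lef1 P5. It was at 62.3 FPKM (59.6 to 65.1) in Lef1 P5, 38.8 FPKM (36.7 to 41.1) in Lef1 P2, against 45.7 FPKM (43.4 to 48.1) in empty vector P2. Lef1 P5 was the high library here, and the intervals of the 3 libraries do not overlap. The fold to empty vector P2 was 1.36 (1.27 to 1.46) in Lef1 P5 and 0.850 (0.787 to 0.918) in Lef1 P2, and neither was called. Lef1 P5 exceeded Lef1 P2 by 1.60-fold in Hsph1 (1.49 to 1.72), past 1.5-fold but not called. The ratio to empty vector P2 in Lef1 P5 was the largest of the 10 in that comparison, with a log2 value of 0.44.

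Hsp90 comes from a pair of genes in the cytosol, of which Hsp90ab1 is the constitutive form and Hsp90aa1 the form that stress raises further. Hsp90ab1 was at 2009.7 FPKM (1991 to 2028) in Lef1 P5, 1633 FPKM (1616 to 1649) in Lef1 P2, against 2152 FPKM (2133 to 2172) in empty vector P2. Hsp90aa1 stood at 1387 FPKM (1373 to 1402) in Lef1 P5, 896 FPKM (885 to 908) in Lef1 P2, against 1466 FPKM (1451 to 1480.5) in empty vector P2. For both genes Lef1 P2 was the low library and no intervals overlapped, yet neither was called in any comparison. Relative to empty vector P2, Lef1 P2 had 0.611 times the Hsp90aa1 level (0.602 to 0.622) and 0.759 times the Hsp90ab1 level (0.748 to 0.769). The ratios of Lef1 P5 to empty vector P2 were 0.947 (0.933 to 0.960) for Hsp90aa1 and 0.934 (0.922 to 0.946) for Hsp90ab1. Lef1 P5 exceeded Lef1 P2 by 1.55-fold (1.52 to 1.57) in Hsp90aa1 and 1.23-fold (1.21 to 1.25) in Hsp90ab1. The level of Hsp90ab1 over that of Hsp90aa1 was thus 1.45 (1.43 to 1.47) in Lef1 P5, 1.82 (1.79 to 1.85) in Lef1 P2 and 1.47 (1.45 to 1.49) in empty vector P2. Within Lef1 P2, Hsp90ab1 was the highest of the 10 genes, ahead of Hspa8, whereas Hspa8 led in Lef1 P5 and in empty vector P2.

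Hspb1 encodes the small heat shock protein Hsp25, which holds unfolding clients and binds the actin cytoskeleton, and it had the lowest ratio of the 10 genes. It was at 734 FPKM (715 to 752) in Lef1 P5, 334 FPKM (321 to 347) in Lef1 P2, against 828 FPKM (808 to 849) in empty vector P2, from 5906, 2604 and 6532 reads. The Lef1 P2 level fell to 0.403 times that of empty vector P2 (0.385 to 0.422), and Lef1 P5 was 2.20-fold above Lef1 P2 (2.10 to 2.30). Between Lef1 P5 and empty vector P2 the ratio was 0.885 (0.855 to 0.917), under the size rule. Both calls were kept under every scaling, pseudocount and minimum tried, at log2 ratios of -1.47 to -1.30 and 1.12 to 1.33.

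By the distance between their log2 ratios to empty vector P2, the patterns most like that of Hspb1 among 1934 genes that reached 50 FPKM were those of Zfp980, Tuba1a, Hnrnpl, Slc25a5 and Ppp1r14b. The likeness rests on 3 libraries, and the counts of Zfp980 and Tuba1a were not whole. Hnrnpl, a splicing regulator gene, was at 278 FPKM in Lef1 P5, 125 FPKM in Lef1 P2 and 320.3 FPKM in empty vector P2. Slc25a5, which encodes an ADP/ATP carrier of the inner mitochondrial membrane, was at 400.1 FPKM in Lef1 P5, 199.5 FPKM in Lef1 P2 and 461 FPKM in empty vector P2.

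Hspd1 (Hsp60) and Hspe1 (Hsp10) encode the barrel and the lid of the mitochondrial chaperonin, and share the promoter stretch printed above. Hspd1 was at 527 FPKM (517 to 536) in Lef1 P5, 215 FPKM (209 to 222) in Lef1 P2, against 489 FPKM (480 to 499) in empty vector P2. Hspe1 was at 376 FPKM (361 to 391) in Lef1 P5, 237 FPKM (225 to 249) in Lef1 P2, against 368 FPKM (354 to 383) in empty vector P2. Both were low in Lef1 P2, while the Hspe1 intervals of Lef1 P5 and empty vector P2 overlap.

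Of the chaperonin pair, Hspd1 alone was called: it fell to 0.440 times the empty-vector level in Lef1 P2 (0.425 to 0.455) and was 2.45-fold higher in Lef1 P5 than in Lef1 P2 (2.36 to 2.53). For Hspe1 these ratios were 0.643 (0.604 to 0.686) and 1.59 (1.49 to 1.69), not called. Lef1 P5 stood at 1.08 times the Hspd1 level of empty vector P2 (1.05 to 1.11) and at 1.02 times its Hspe1 level (0.965 to 1.08). The level of Hspd1 over that of Hspe1 was 1.40 (1.34 to 1.46) in Lef1 P5, 0.908 (0.857 to 0.962) in Lef1 P2 and 1.33 (1.27 to 1.39) in empty vector P2. So the lid gene stood above the barrel gene only in Lef1 P2 of these 3 libraries. The gene spans overlap by 96 bases on opposite strands in GRCm38.p6, and reads there cannot be assigned if counting ignored strand; its use was not given in the sources used here. RefSeq also names at least 11 pseudogenes of the pair, and of the 11 found by name 0 are listed in the 3 libraries. Reads that match such copies may have been dropped or kept, and this was not tested.

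Hsf1, the transcription factor of the heat shock response, was at an intermediate level and showed no called difference. It was at 16.3 FPKM (14.5 to 18.2) in Lef1 P5, 15.6 FPKM (13.8 to 17.5) in Lef1 P2, against 18.3 FPKM (16.4 to 20.4) in empty vector P2, with overlapping intervals throughout. The ratio of Lef1 P2 to empty vector P2 was 0.851 (0.723 to 1.0002), from 280 and 332 reads, so a fall of the size of Hspb1 or Hspd1 lies outside the counting interval. Lef1 P5 had 0.887 times the level of empty vector P2 (0.756 to 1.04) and 1.04 times that of Lef1 P2 (0.883 to 1.23). Hsf1 protein is mainly controlled by its folding partners and by phosphorylation, which transcript levels do not show.

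**Figure D3:**
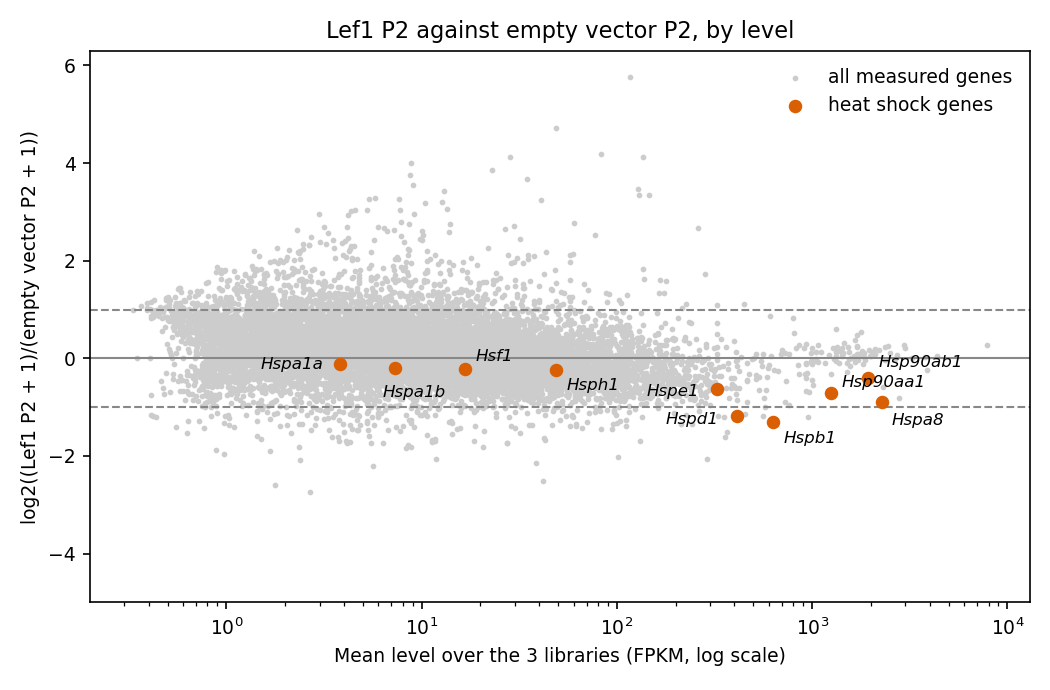
Log2 ratio of Lef1 P2 over empty vector P2 (with 1 FPKM added to each) against the mean level over the 3 libraries (FPKM, log axis) for the 12894 measured genes in grey and the 10 heat shock genes in orange. All 10 lie under 0, the 6 strongly expressed ones between -1.31 and -0.40, while the median of the 884 genes at 100 FPKM is -0.21.

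The wider chaperone network was read from 9 lists with 93 genes, chosen with earlier results of these data known. Genes that reached 1 FPKM in any library count as measured. The Hsp90 co-chaperones were nearest to the heat shock genes. As deposited, 0 of 16 measured genes were called in any comparison. In Lef1 P2 against empty vector P2, 6.49% of all genes were called higher and 1.82% lower. The median log2 ratio of the 16 there was -0.50 (all genes 0.11, genes at 100 FPKM -0.21). Past 1.5-fold, 6 of the 16 were lower, against 8.03% of all genes and 19.8% of the genes at 100 FPKM, a level that all of the 6 but Fkbp5 reached in some library. After median-of-ratios or TMM scaling Fkbp4 was called lower there, and Fkbp4, Ppid and Cacybp higher in Lef1 P5 than in Lef1 P2. The lowest ratio was that of Fkbp4, an Hsp90-binding prolyl isomerase of steroid receptor complexes, at 342 FPKM in Lef1 P5, 175 FPKM in Lef1 P2 and 331 FPKM in empty vector P2. The highest was that of Unc45a, a myosin chaperone gene, with 13.6 FPKM in Lef1 P2 and 12.5 FPKM in empty vector P2. In Lef1 P5 the median against empty vector P2 was 0.05, from Chordc1 at 0.30 to Tomm34 at -0.60.

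The cytosolic chaperonin, which folds actin and tubulin, and its delivery complex prefoldin had 0 of 14 genes called in Lef1 P2 against empty vector P2, with a median of -0.34. Of all genes 6.49% were called higher there and 1.82% lower, so 0 calls in lists this short is near that share. The subunit gene Cct6a lay lowest, at 350.4 FPKM in Lef1 P5, 183 FPKM in Lef1 P2 and 320.3 FPKM in empty vector P2, and the prefoldin gene Pfdn5 highest, at 108 FPKM in Lef1 P2 and 91.7 FPKM in empty vector P2. J-domain co-chaperones had 0 of 13 called, with a median of -0.26 in that comparison. Dnaja4 had their highest ratio, at 2.41 FPKM in Lef1 P2 and 0.29 FPKM in empty vector P2, below the minimum of 3 FPKM. Among the 6 measured of 8 other Hsp70 and Hsp110 genes 0 were called, and the median was 0.11, equal to that of all genes at this precision. The Hsp110 gene Hspa4 lay lowest there, at 216 FPKM in Lef1 P5, 115 FPKM in Lef1 P2 and 203 FPKM in empty vector P2. After median-of-ratios or TMM scaling Cct3, Cct6a, Dnaja1 and Hspa4 of these lists were called higher in Lef1 P5 than in Lef1 P2.

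Other lists held genes that were higher in Lef1 P2. Of 9 Hsp70 exchange factors and partners, Bag2 and Bag5 were called higher in Lef1 P2 than in empty vector P2, and 0 lower, with a median of 0.08, where 6.49% of all genes were called higher. With a pseudocount of 5 FPKM or a minimum of 10 FPKM the call of Bag2 was lost. Bag2, which restrains the ubiquitin ligase Chip on Hsp70, was at 2.60 FPKM in Lef1 P5, 7.90 FPKM in Lef1 P2 and 2.47 FPKM in empty vector P2. Bag5 was at 9.30 FPKM in Lef1 P5, 15.6 FPKM in Lef1 P2 and 5.02 FPKM in empty vector P2. Of the 14 mitochondrial chaperones and proteases, Hscb, a J-domain protein of iron-sulfur cluster assembly, was the only call in Lef1 P2 against empty vector P2, at 12.9 FPKM in Lef1 P5, 27.2 FPKM in Lef1 P2 and 9.62 FPKM in empty vector P2. Their median was -0.06, and the mitochondrial Hsp90 gene Trap1 lay lowest, at 66.7 FPKM in Lef1 P2 and 111 FPKM in empty vector P2.

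The other small heat shock protein genes measured did not share the order of Hspb1: 0 of 5 were lowest in Lef1 P2. Their median log2 ratio in Lef1 P2 against empty vector P2 was 0.91 over 5 measured of 9 genes, with Cryab called higher and 0 lower, and 4 of the 5 passed 1.5-fold higher, against 17.5% of all genes (6.49% called higher). With a pseudocount of 5 FPKM 0 of the 5 were called, and with 0.1 FPKM 3 were (Hspb6, Hspb11 and Cryab). Cryab, the alpha-B crystallin gene, was at 5.76 FPKM in Lef1 P5, 19.2 FPKM in Lef1 P2 and 7.21 FPKM in empty vector P2. Hspb2 was lower in Lef1 P2 (8.93 FPKM) than in empty vector P2 (12.1 FPKM), but not called. It was called lower in Lef1 P5 than in empty vector P2, at 2.59 and 12.1 FPKM, from 18 and 82 reads. In Lef1 P5 against Lef1 P2, 3 of the 5 were called lower (Hspb2, Hspb11 and Cryab), against 6.86% of all genes. The Hspb2 call there was lost with a pseudocount of 5 FPKM or a minimum of 10 FPKM. Hspb8 was the only one of the 5 over 20 FPKM, at 29.7 FPKM in Lef1 P5, 32.4 FPKM in Lef1 P2 and 16.8 FPKM in empty vector P2.

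Of 5 other heat shock factors and binding proteins 0 were called in any comparison as deposited, with a median of 0.08 in Lef1 P2 against empty vector P2. Hsf4 had the highest ratio, at 2.66 FPKM in Lef1 P2 and 0.69 FPKM in empty vector P2, below the minimum, and Hsf2bp the lowest, at 13.8 and 21.3 FPKM. Among 17 further genes that heat is known to raise, most of which stand in the lists above too, 2 were called higher in Lef1 P2 than in empty vector P2 and 0 lower, against 6.49% and 1.82% of all genes, with a median of -0.04. Past 1.5-fold 5 were higher and 5 lower, against 17.5% and 8.03% of all genes. The called genes were Cryab and Serpinh1, the collagen chaperone Hsp47 of the endoplasmic reticulum, and the Cryab call was lost with a pseudocount of 5 FPKM. Serpinh1 was at 76.3 FPKM in Lef1 P5, 287 FPKM in Lef1 P2 and 27.3 FPKM in empty vector P2. Serpinh1 was 10.5-fold higher in Lef1 P2 and 2.80-fold higher in Lef1 P5 than in empty vector P2, in the order of the summed endoderm markers given above.

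**Figure D4:**
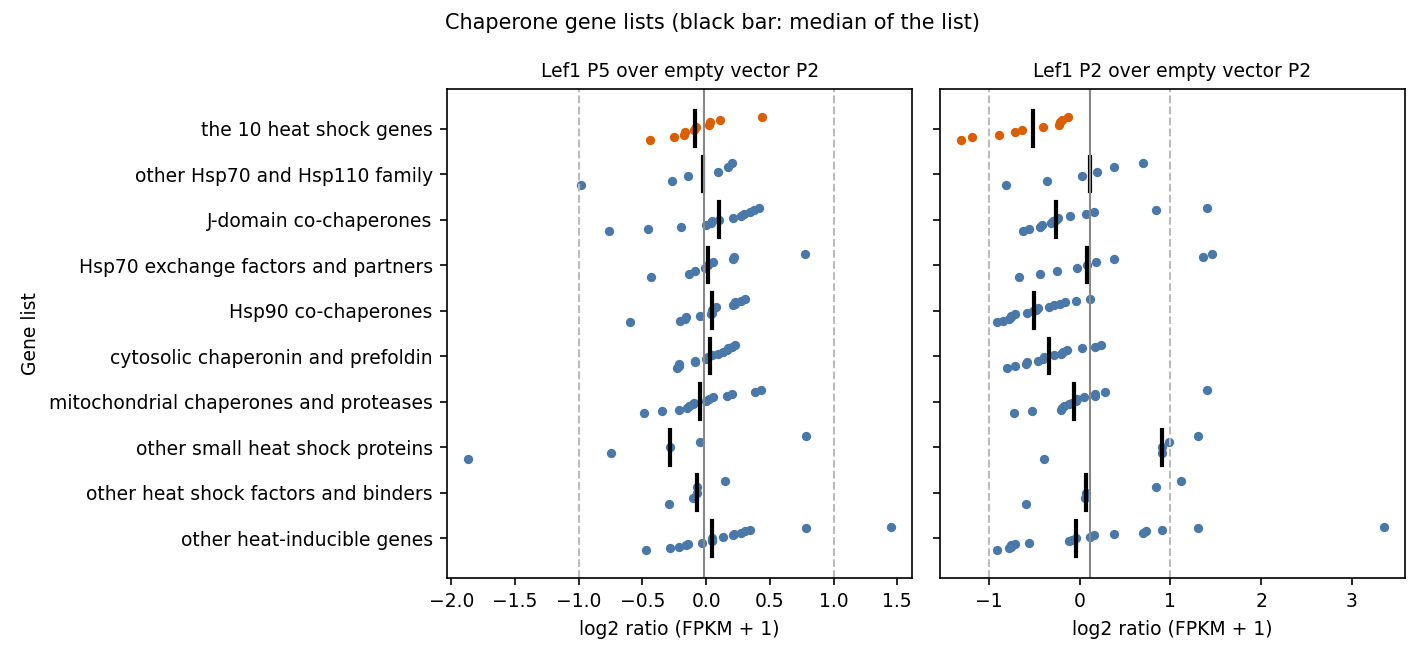
Log2 ratio (with 1 FPKM added) of each measured gene in the chaperone lists, for Lef1 P5 over empty vector P2 on the left and Lef1 P2 over empty vector P2 on the right, with the median of each list as a black bar, the median of all genes as a grey line and dashed lines at 2-fold. In Lef1 P2 the heat shock genes and the Hsp90 co-chaperones have medians of -0.52 and -0.50 and the other small heat shock proteins 0.91, while in Lef1 P5 the first 2 medians are -0.09 and 0.05.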

How the data were processed

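Total RNA of 3 cultures was sequenced, 1 library per group. The submitters' processing notes name Bowtie 0.12.2 and mm8; no counting program or strand setting was given in the sources used here. The authors deposited, per the file headers, a table per library with Entrez gene number, RefSeq transcripts, length, expected count and FPKM. The deposited expected counts were not whole for 8.49% to 8.61% of listed genes. FPKM was used as deposited; with the summed counts it implies lengths a median of 51.0 to 59.8 bases shorter than listed. Genes missing from a table were taken as 0. Symbols came from RefSeq GRCm38.p6 (17951 of 17997 numbers matched). Its coordinates serve for its own promoter sequences, gene positions and the overlap of the Hspd1 and Hspe1 spans, and not for the deposited levels.

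Calls used a pseudocount of 1 FPKM as given in the report. The call rule and intervals were tested on simulated data. Intervals of levels are exact Poisson intervals, and those of ratios are exact conditional binomial intervals on counts rounded to whole reads (scipy 1.17.1). TMM factors came from edgeR 4.0.16. At this depth 3 reads on 1 kb amount to 0.320 to 0.327 FPKM. The members and lists were chosen with earlier results of these data known. Named were the 10 genes, Lef1 and the 5 genes nearest to Hspb1. For each list the called genes and the highest and lowest ratio per comparison were named, of which the text gives a selection. Dnajb1, Hspa1l, Fkbp5, Ppid, Cacybp, Cct3 and Hspb6 were named after their values were seen. 1 result is not reported here. Alternatives were pseudocounts of 0.1 and 5, minimums of 1 and 10 FPKM and none, median-of-ratios and TMM scaling, CPM, the mean length over the libraries and a 1.5-fold threshold.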

Additional observations from a re-analysis of the deposited data

Results flagged for a closer look

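Hspd1 and Hsph1 lay on opposite sides of the shared empty-vector library in the Lef1 libraries, with counting intervals that leave out a ratio of 1. Hspd1 was 1.08-fold (1.05 to 1.11) in Lef1 P5 and 0.440-fold (0.425 to 0.455) in Lef1 P2 relative to empty vector P2. Hsph1 was 1.36-fold in Lef1 P5 and 0.850-fold in Lef1 P2. With 1 library per group the difference was not tested, and both ratios share the empty-vector library.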

How the results depend on the processing

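No paired analysis was possible because each group has 1 library, and no library could be left out. Over all pseudocounts, scalings and lengths tried, 0 of 33 log2 ratios of the heat shock genes and the summed Hspa1a and Hspa1b copies changed sign. A pseudocount cannot change a sign, so this rests on the scalings and lengths. Of the 198 alternative values, 35 moved by more than the reach of their counting interval to either side, and of 270 alternative counts of calls in the lists, 58 moved by over 1.5 times. Hspb1 and Hspd1 were called in Lef1 P2 against empty vector P2 and in Lef1 P5 against Lef1 P2 under each alternative, and Hspa8 was added to the first by median-of-ratios and TMM scaling (3 calls). The 1.5-fold threshold gave 5 and 6 heat shock genes in place of 2 and 2. The count over all genes moved more. In Lef1 P2 against empty vector P2 it was 885, and 328 with a pseudocount of 5, 478 with a minimum of 10 FPKM, 1506 with CPM, 2719 with the 1.5-fold threshold and 69 among genes at 100 FPKM. For Lef1 P5 against empty vector P2 it was 272, and 414 and 67 with pseudocounts of 0.1 and 5, 116 with the minimum of 10 FPKM, 545 with CPM, 1038 at 1.5-fold and 17 among genes at 100 FPKM. Between the Lef1 libraries it was 926, and 281 with the pseudocount of 5, 503 with the minimum of 10 FPKM, 1547 with CPM, 2961 at 1.5-fold and 87 among genes at 100 FPKM. The restriction to genes at 100 FPKM was chosen after seeing the data; it and the minimums and thresholds change which genes count. The cause of the other shifts was not tested. Depth limits Hspa1a, with 77.97 to 112 expected reads, most among the 10 genes.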

Other observations

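Within the J-domain list, Dnaja1 and Dnajb1, both partners of Hsp70 that heat is known to raise, differed in order as deposited. Dnaja1 had 3155 expected reads in Lef1 P5, 1709 in Lef1 P2 and 2554 in empty vector P2. Dnajb1 was at 31.2 FPKM in Lef1 P5, 27.3 FPKM in Lef1 P2 and 24.4 FPKM in empty vector P2. Its levels in Lef1 P2 and empty vector P2 lie close, from 556 and 501 expected reads, and no interval was computed. The TMM factors, 1.08 for Lef1 P2 and 0.970 for empty vector P2, bring these levels closer still. The order of Dnajb1 between these libraries is therefore not settled. Neither was called in any comparison as deposited, but Dnaja1 was called higher in Lef1 P5 than in Lef1 P2 after median-of-ratios or TMM scaling. Dnajb1 was chosen after its values were seen.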
